A study of Mus musculus with 16 samples.

Results

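The glucocorticoid receptor *Nr3c1*, the mineralocorticoid receptor *Nr3c2* and 5 genes that glucocorticoids are known to induce, *Fkbp5*, *Tsc22d3*, *Sgk1*, *Zbtb16* and *Klf9*, were followed in the pituitary of 16 female mice. These 7 genes were chosen by name, and all 7 were found among the 17351 genes listed with a symbol. RNA was sequenced as 1 library per mouse, with 4 mice in each of 4 groups: controls and mutants, each on standard diet (SD, labelled chow) or high-fat diet (HFD). Controls were *Esr1* fl/fl, and mutants were *Esr1* fl/fl mice that also carried an *Nkx2-1*-Cre transgene, which removes oestrogen receptor alpha from cells with a history of *Nkx2-1* expression. Within the pituitary that lineage is known mainly from the posterior lobe, and the share of hormone cells that carry the deletion was not measured. Both genotypes had the floxed *Esr1* alleles, and all mice were 27 weeks old with 17 weeks of HFD in the 2 HFD groups. The strains were mixed, CD-1 with 129P2. The profile compares pituitary expression between the genotypes, and between the diets within each of them. Each label names 1 mouse, and each mouse is a replicate of its own.

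Glucocorticoids, mainly corticosterone in mice, are made in the adrenal cortex under the control of ACTH, the peptide that pituitary corticotrophs cut from the *Pomc* product. They bind receptors held in an Hsp90 chaperone complex, and the bound receptor enters the nucleus, binds DNA and changes transcription. In corticotrophs this lowers *Pomc* and closes the feedback loop of the stress axis. Many target genes respond in most cell types and serve as a transcriptional readout of receptor activity.

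The DNA element of the receptor is a pair of inverted hexamers separated by 3 bases. Windows from 250 bases before to 50 bases after each annotated start (RefSeq, GRCm38.p6) were searched on both strands for the full element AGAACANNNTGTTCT, for its core ACANNNTGT and for the single hexamer AGAACA or its complement TGTTCT. A full element contains a core and 2 hexamers. For the members, 12 windows of 5 genes were taken, 6 of them for *Sgk1* and 3 for *Tsc22d3*, and the other members are not covered. Of all 32851 windows, 19.0% held the hexamer, 6.85% the core and 0.00913% the full element, which is 3 windows, belonging to *Acnat2*, *Gm35041* and 1 start of *Sgk1*. That window is printed because it is the one among the members with the full element. The *Tsc22d3* window is printed because it is the only one of the 12 member windows outside *Sgk1* with a hexamer. Capitals mark the hexamers and the full element:
*Sgk1*, chr10:21993640-21993939, plus strand: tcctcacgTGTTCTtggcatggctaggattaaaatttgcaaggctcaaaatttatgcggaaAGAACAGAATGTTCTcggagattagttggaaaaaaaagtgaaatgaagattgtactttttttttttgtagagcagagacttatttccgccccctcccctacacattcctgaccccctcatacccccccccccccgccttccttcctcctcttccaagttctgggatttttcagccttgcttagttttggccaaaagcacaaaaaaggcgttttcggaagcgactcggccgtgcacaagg
*Tsc22d3*, chrX:140600473-140600772, minus strand: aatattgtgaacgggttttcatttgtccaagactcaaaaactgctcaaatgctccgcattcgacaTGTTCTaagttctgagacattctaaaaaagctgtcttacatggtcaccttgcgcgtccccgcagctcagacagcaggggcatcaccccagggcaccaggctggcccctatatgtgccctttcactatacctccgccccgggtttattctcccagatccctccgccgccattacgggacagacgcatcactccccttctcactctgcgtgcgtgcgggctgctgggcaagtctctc
In the *Sgk1* window a hexamer begins at position −242 and the full element at −189, counted from the start. In the *Tsc22d3* window the hexamer begins at −185. A match in letters is a description and not a bound site, and known elements of these genes can lie far outside such windows.

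Expression is given as a normalized signal on a scale that takes transcript length into account, so levels can be set side by side between genes. They summed to between 908138 and 1334746 per mouse, and by the step between low values 1 read was worth between 0.0434 and 0.0685 units per kilobase of transcript. The deleted gene *Esr1* did not overlap between mutants and controls on SD, as in 10.6% of all genes tested. It was lower in mutants there (log2 fold change −1.09, adjusted p = 0.0409 in limma), a call that held in 6 of 16 fits that omit 1 mouse (adjusted p up to 0.1196). Averaged over diets it was also lower (−0.71, adjusted p = 0.0280; 10 of 16 such fits, up to 0.0684). On HFD alone the means were 37.3 ± 9.29 for controls against 29.0 ± 5.53 for mutants (SD, 4 mice each), with overlapping mice. Hormone and lineage markers of lactotrophs, somatotrophs, gonadotrophs, thyrotrophs, corticotrophs and melanotrophs were above 0 in every mouse. Among 5 posterior lobe markers, *Nkx2-1*, *Rax* and *Lhx2* were at 0 in at least 1 mouse. A mutant on SD, P357, stood apart with 532 genes at 0 (94 to 309 in the other mice), a mitochondrial sum of 119409 (32247 to 49368 in the others) and the lowest *Pomc*, 1654. A control on HFD, P392, had the next lowest *Pomc*, 3443, so results that rest on these 2 mice are given with and without them.

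*Nr3c1*, the receptor that binds corticosterone when its level is high (ENSMUSG00000024431, chromosome 18 of GRCm38, 39410545 to 39519421, minus strand), was the steadiest of the members. In controls on SD it was 15.9, 17.8, 17.9 and 11.4, and in mutants on SD 18.3, 15.5, 18.3 and 17.6. In controls on HFD it was 13.0, 14.9, 13.999 and 13.9, and in mutants on HFD 21.03, 16.9, 14.3 and 16.6. Both pairs of groups overlapped, although on HFD only 1 mutant lay within the range of the controls. The group means ordered from 17.4 ± 1.32 in mutants on SD and 17.2 ± 2.80 in mutants on HFD to 15.8 ± 3.06 in controls on SD and 13.9 ± 0.76 in controls on HFD (SD, n = 4 each), and no neighbours in this order differed by more than the larger of their SDs. The log2 fold change of mutants against controls was 0.16 (95% confidence interval −0.14 to 0.46) on SD and 0.28 (−0.02 to 0.59) on HFD.

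*Nr3c2*, which binds corticosterone with higher affinity and is occupied already at low hormone levels (ENSMUSG00000031618, chromosome 8, 76899442 to 77245012, plus strand), varied more. Controls on SD had 12.7, 10.3, 11.8 and 11.3, and controls on HFD 5.72, 11.6, 8.56 and 5.61. Mutants on SD had 3.08, 12.1, 11.1 and 7.24, where the lowest value is P357, and mutants on HFD 9.35, 6.78, 6.82 and 9.92. Controls on SD formed a tight group with the highest mean, 11.5 ± 0.98, while the other 3 groups had means between 7.88 and 8.38 that differed by less than their SDs. On SD the log2 fold change of mutants was −0.59 (95% confidence interval −1.27 to 0.09), and without P357 and P392 it was −0.20 (SE 0.22). In controls, HFD against SD gave −0.58 (−1.26 to 0.10; exact permutation test, two-sided p = 0.0857).

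**Figure D1:**
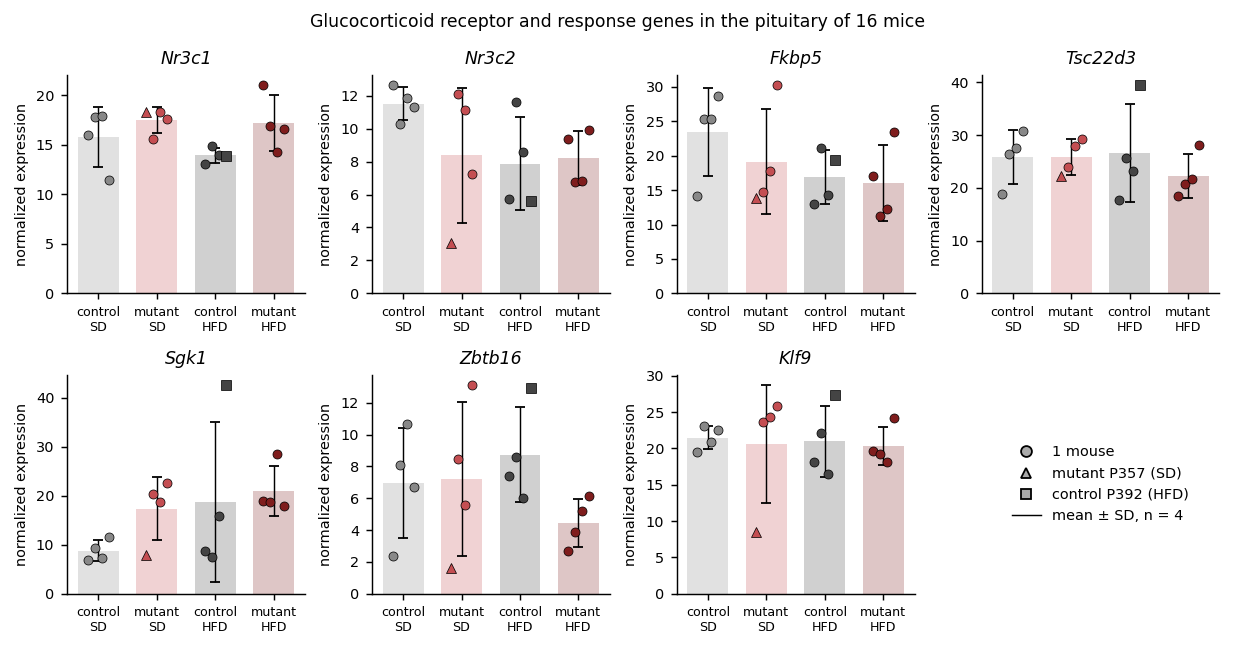
Normalized expression of the 7 genes (vertical axes, each starting at 0) in the 4 groups. Each point is 1 mouse, bars and lines are the mean ± SD of 4 mice, a triangle marks mutant P357 and a square marks control P392. *Sgk1* lies between 6.92 and 11.5 in controls on SD, 7.95 and 22.5 in mutants on SD, 7.52 and 42.6 in controls on HFD and 17.8 and 28.6 in mutants on HFD.

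*Fkbp5* encodes a co-chaperone in the receptor complex that lowers the receptor's affinity for hormone, and its induction by the receptor forms a short feedback loop (ENSMUSG00000024222, chromosome 17, 28399094 to 28517527, minus strand). On SD it was 14.1, 25.4, 25.4 and 28.8 in controls, and for mutants 13.8, 14.8, 17.7 and 30.3. On HFD it was 13.0, 21.2, 14.2 and 19.4 in controls, and for mutants 17.1, 11.2, 12.3 and 23.5. Each group held mice with values near 14 or below and mice with values above 19, so all groups overlapped. Means went down in the order controls on SD (23.4 ± 6.38), mutants on SD (19.2 ± 7.61), controls on HFD (17.0 ± 3.93) and mutants on HFD (16.05 ± 5.58). Neighbours in this order were closer than their SDs, but the mean of controls on SD differed from that of either HFD group by more than the SDs of the groups compared. The difference of HFD against SD averaged over genotypes was −0.34 on the log2 scale (95% confidence interval −0.76 to 0.09).

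*Tsc22d3*, also called GILZ, encodes a leucine zipper protein that carries part of the anti-inflammatory action of glucocorticoids (ENSMUSG00000031431, chromosome X, 140539528 to 140600659, minus strand). It had the highest mean of the 7 genes over the 16 mice, 25.1. Controls on SD had 18.8, 26.4, 27.6 and 30.7, and mutants on SD 22.2, 24.0, 27.9 and 29.3. Controls on HFD had 17.8, 25.7, 23.2 and 39.5, the last being P392, and mutants on HFD 18.5, 20.7, 21.7 and 28.2. Means of 25.9 in both SD groups were alike to within 0.1 units, and the log2 fold change between them, 0.01, had a 95% confidence interval of −0.43 to 0.46. On HFD it was −0.21 (−0.65 to 0.24), and 0.00 (SE 0.18) without P357 and P392.

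*Sgk1*, a serum- and glucocorticoid-regulated kinase that raises the activity of sodium channels and transporters and also responds to growth factors and osmotic stress, had the largest fold change between genotypes among the members on SD and averaged over diets (ENSMUSG00000019970, chromosome 10, 21882184 to 21999903, plus strand). Controls on SD had 6.92, 9.32, 7.31 and 11.5, and mutants on SD 7.95, 20.3, 18.7 and 22.5. Of these mutants 3 were above every control, and P357 was within the controls. Controls on HFD had 8.81, 7.52, 15.9 and 42.6, and mutants on HFD 18.8, 18.7, 28.6 and 17.8. On HFD the mutants were above 3 of the controls, and P392 had the highest value of all 16 mice. The log2 fold change was 0.88 on SD (SE 0.43, adjusted p = 0.265; exact permutation test, two-sided p = 0.0857) and 0.48 on HFD (SE 0.43, adjusted p = 0.762; exact permutation p = 0.400), with 0.68 averaged over diets (SE 0.30, p = 0.0392 and adjusted p = 0.194 in limma). It did not pass the threshold in any of the 3.

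Without P357 and P392, all 7 remaining mutants (17.8 to 28.6) were above all 7 remaining controls (6.92 to 15.9). In those 14 mice the mutants lay wholly above the controls in 4.58% of all 14340 genes tested, and the genotypes did not overlap in 6.14%. *Sgk1* then passed the threshold on SD (log2 fold change 1.21, SE 0.24, adjusted p = 0.0103), on HFD (0.98, SE 0.24, adjusted p = 0.0254) and averaged over diets (1.09, SE 0.17, adjusted p = 0.000691). In the same 14 mice 6.7%, 7.42% and 18.6% of all genes passed in these comparisons, so more genes were called throughout. Leaving out P392 alone gave 0.93 averaged over diets (adjusted p = 0.0115), and leaving out P357 alone 0.84 (adjusted p = 0.0787). These 2 mice were set apart with earlier results of these data known, and P392 is the highest control in this gene and P357 the lowest mutant. With the series of animal numbers (6 mice lower, 10 higher) as a covariate, the log2 fold change was 0.55 on SD and 0.81 on HFD, with adjusted p = 0.457 and 0.566. Within the higher series, SD had 1 control at 11.5 and 3 mutants at 18.7 to 22.5, and HFD had 4 controls at 7.52 to 42.6 and 2 mutants at 17.8 and 28.6. Within the lower series, SD had 3 controls at 6.92 to 9.32 and 1 mutant, P357, at 7.95, and HFD had mutants only. Fitted to the 10 mice of the higher series alone, which assumes that the lone control on SD varies like the other groups, the log2 fold change of *Sgk1* was 0.80 on SD (SE 0.76, adjusted p = 0.665 in limma), 0.61 on HFD (SE 0.57, adjusted p = 0.856) and 0.71 averaged over diets (SE 0.47, adjusted p = 0.471). The lower series holds no diet with 2 or more mice of each genotype.

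Some markers of other cells were also higher in mutants. The summed level of 5 endothelial markers was 101 to 123 in controls on SD and 154 to 206 in mutants on SD. On HFD it was 94.3 to 183 in controls, where 183 was P392, and 149 to 164 in mutants. All 5 had positive fold changes on both diets, and *Pecam1* (0.60), *Cdh5* (0.62) and *Plvap* (0.43) passed the threshold averaged over diets. For 5 immune markers the sum on SD ranged from 30.0 to 44.5 in controls and 53.2 to 134 in mutants. On HFD it ranged from 26.1 to 88.4 in controls, where P392 was again the highest, against 52.3 to 113 for mutants. All 5 had positive fold changes on both diets, and *C1qa* passed averaged over diets (0.92, adjusted p = 0.0466 in limma). The 5 erythroid markers were positive on both diets too, with a median of 1.07 averaged over diets, and 0 of them passed. Of 5 posterior lobe markers, *Col25a1* passed as higher in mutants on SD and averaged over diets. Only 2 of these 5 had positive fold changes on SD, and 3 averaged over diets. *Dio2*, 1 of 3 thyrotroph markers, was higher and passed averaged over diets. The sum of 5 fibroblast and pericyte markers was highest in P392, 698 against 129 to 568 in the other mice. The endothelial sum was highest in P357, 206, but the values of all genes together were also highest in this mouse, 1334746. By mean log2 level of the same 5 markers P357 had 4.58, below P392 (4.82), P339 (4.65) and P382 (4.64). *Sgk1* was low in P357. The corticotroph sum, carried by *Pomc*, was 1672 in P357 and 3469 in P392 and 11283 to 42094 in the others. *Pomc* is on the melanotroph list too, so this sum cannot be read as corticotrophs alone. The mean log2 level of 4 melanotroph markers was 3.66 and 5.18 in these 2 mice and 6.71 to 8.23 in the others, and each of the 2 had 2 of the 5 posterior lobe markers at 0, which no other mouse had. The part of these cells in the *Sgk1* difference was not tested, and in bulk tissue more cells of a type cannot be told apart from more RNA per cell.

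*Zbtb16*, a zinc finger repressor also called PLZF that is induced strongly by glucocorticoids in many tissues (ENSMUSG00000066687, chromosome 9, 48654297 to 48836222, minus strand), was the lowest and most variable member. Controls on SD had 2.37, 8.12, 10.6 and 6.74, and mutants on SD 1.60, 8.45, 5.60 and 13.1. Controls on HFD had 7.43, 8.62, 6.01 and 12.9, and mutants on HFD 2.69, 3.87, 5.20 and 6.12. On HFD only 1 mutant reached into the range of the controls, and P392 was again the highest control. The log2 fold change on HFD was −0.90 (95% confidence interval −1.95 to 0.15, adjusted p = 0.572; exact permutation test, two-sided p = 0.0571). On SD it was −0.09 (−1.14 to 0.96), and without P357 and P392 it was 0.44 on SD and −0.70 on HFD, neither past the threshold. The interaction of genotype and diet, −0.81, had a confidence interval of −2.29 to 0.68.

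*Klf9*, a Krüppel-like factor that the receptor induces directly and that restrains later target genes (ENSMUSG00000033863, chromosome 19, 23141226 to 23168134, plus strand), had nearly equal group means between 20.3 and 21.5. Values for controls on SD were 19.6, 23.1, 20.8 and 22.6, and mutants on SD 8.53, 23.7, 24.4 and 25.8. P357, at 8.53, was far below the other mice, and the remaining 3 mutants on SD were above all 4 controls. Values for controls on HFD were 18.1, 22.1, 16.5 and 27.4, and mutants on HFD 19.7, 19.2, 18.2 and 24.2. The log2 fold change was −0.18 on SD (95% confidence interval −0.74 to 0.39) and −0.03 on HFD (−0.59 to 0.54). Without P357 and P392 it was 0.19 (SE 0.12, adjusted p = 0.349) on SD and 0.11 (SE 0.12) on HFD.

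Across the 7 genes, 0 passed an adjusted p of 0.05 in limma for mutants against controls on SD, where 1.84% of all 14340 genes tested passed (1.37% higher and 0.474% lower in mutants). On HFD 0 members passed and 0% of all genes did, and averaged over diets 0 members passed against 6.54% of all genes (4.48% higher and 2.06% lower). By limma's unadjusted p, 0 members were under the same limit on SD and 0 on HFD, against 19.9% and 10.2% of all genes. Averaged over diets *Sgk1* and *Nr3c1* were, the latter at 0.22 with adjusted p = 0.207 in limma, against 22.7% of all genes. No member had mutants and controls without overlap on SD or on HFD, as 10.6% and 5.31% of all genes had. The median log2 fold change of the 7 was −0.09 on SD, −0.03 on HFD and −0.10 averaged over diets, beside −0.01, 0.02 and 0.00 over all genes. The confidence intervals of *Nr3c1* exclude a 2-fold difference on either diet, whereas those of *Zbtb16* and *Sgk1* on both diets and of *Nr3c2* on SD extend beyond 1 in size on the log2 scale. Over 1274 fits of member differences under other filters, scalings, covariates or sets of mice, 4 passed the threshold, all of them *Sgk1* without P392.

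**Figure D2:**
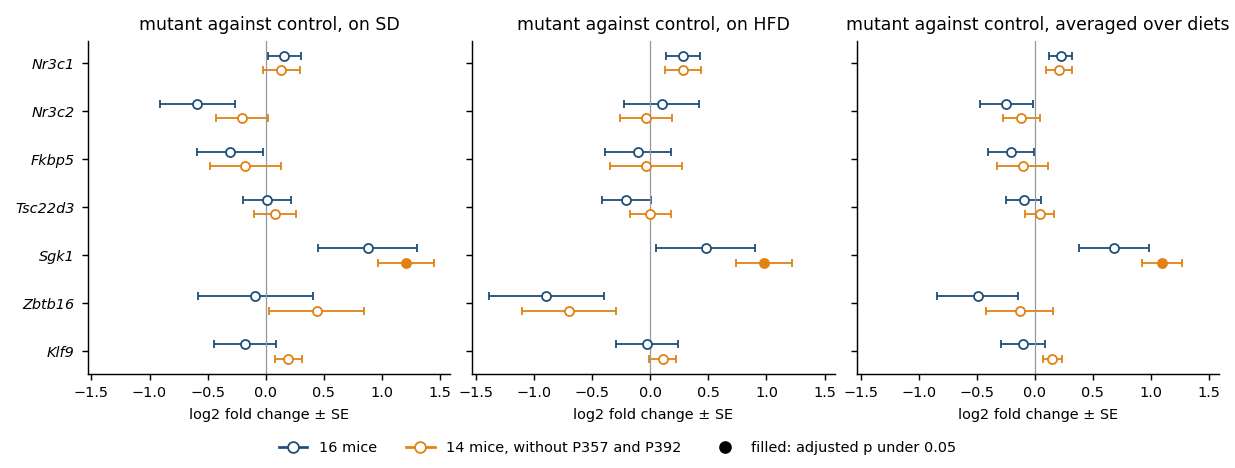
Log2 fold change of mutants against controls (horizontal axis, point ± SE) for the 7 genes on SD, on HFD and averaged over diets, with all 16 mice in blue and without P357 and P392 in orange. Filled points have an adjusted p under 0.05: only *Sgk1*, only without these 2 mice, at 1.21, 0.98 and 1.09.

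HFD against SD was tested within each genotype. In mutants 0 members and 0% of all genes passed, with 5% of all genes under an unadjusted 0.05 in limma. In controls it was 0 members and 0% of all genes, with 4.12% unadjusted. The diets overlapped in every member in both genotypes, and did not in 3.31% of all genes in mutants and 2.62% in controls. The fitted differences of the members ran from −0.39 (*Zbtb16*) to 0.34 (*Sgk1*) in mutants and from −0.58 (*Nr3c2*) to 0.74 (*Sgk1*) in controls. Averaged over genotypes, 0 members passed against 0.00697% of all genes (5.1% unadjusted), and the smallest p among the members was 0.0947, for *Sgk1* (0.54, 95% confidence interval −0.10 to 1.18). The interaction gave 0 members and 0% of all genes, with 4.2% at an unadjusted p under 0.05. The 2 genotype comparisons share no mice, but each diet comparison shares its mice with both of them.

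Within groups, the members did not have the same spread. The SD of log2 values around the group means was 0.20 for *Nr3c1*, at percentile 29.0 of all genes tested, against 0.79 for *Zbtb16* and 0.68 for *Sgk1*, at percentiles 95.7 and 93.5. *Nr3c2*, *Fkbp5*, *Klf9* and *Tsc22d3* had 0.50, 0.44, 0.42 and 0.32, all above the median of 0.26. From the lowest to the highest mouse, *Zbtb16* ran over 8.20-fold and *Sgk1* over 6.15-fold, and *Nr3c1* over 1.85-fold. Each of the 5 response genes had a wider spread than *Nr3c1*.

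To see whether the members rose and fell in the same mice, Pearson's r was computed between every pair over the 16 mice after subtracting the group means, giving 21 pairs with permutation p adjusted over them. Positive r was found in 17 pairs and 6 pairs had an adjusted p under 0.05. The permutation shuffled the centred values freely over the mice and did not allow for the subtracted group means. Its p-values are therefore too small, and calls near the limit may not hold. *Zbtb16* and *Klf9* had r = 0.79 (rho = 0.71, permutation p = 0.00039, adjusted p = 0.00819), and 13 of 16 mice were on the same side of their group mean in both. *Fkbp5* and *Tsc22d3* had r = 0.70 (rho = 0.78, adjusted permutation p = 0.0228) with 14 of 16 mice on the same side. The other 4 pairs were *Fkbp5* with *Zbtb16* (r = 0.66), *Tsc22d3* with *Zbtb16* (0.65), *Tsc22d3* with *Sgk1* (0.66) and *Nr3c2* with *Klf9* (0.66), at adjusted permutation p between 0.0269 and 0.0395. *Nr3c1* had an r between −0.29 and 0.08 with each of the other members.

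Some of these relations rested on P357 and P392. Without both mice, 3 of 21 pairs passed: *Fkbp5* with *Klf9* (r = 0.79, adjusted permutation p = 0.0111), *Fkbp5* with *Tsc22d3* (0.78, adjusted p = 0.0129 by permutation) and *Tsc22d3* with *Zbtb16* (0.68, adjusted permutation p = 0.0498). These p-values are too small for the same reason, and the last lies at the limit. The r of *Sgk1* with *Tsc22d3* went from 0.66 to 0.23 and with *Klf9* from 0.61 to −0.39, that of *Nr3c2* with *Klf9* from 0.66 to 0.33 and that of *Zbtb16* with *Klf9*, the highest in all mice, from 0.79 to 0.48 (adjusted permutation p = 0.244). Leaving out instead the 2 mice farthest from the median in the first gene of each pair gave 0.66 for *Fkbp5* with *Tsc22d3*, 0.75 for *Tsc22d3* with *Zbtb16*, 0.64 for *Zbtb16* with *Klf9* and 0.45 for *Fkbp5* with *Zbtb16*. It gave 0.15 for *Nr3c2* with *Klf9*, a relation that rests on those mice, and 0.34 for *Tsc22d3* with *Sgk1*. Within the lower and the higher series of animal numbers, r was 0.69 and 0.66 for *Fkbp5* with *Tsc22d3* and 0.72 and 0.76 for *Zbtb16* with *Klf9*. For *Tsc22d3* with *Zbtb16* it was 0.87 and 0.54, and for *Nr3c2* with *Klf9* 0.91 and 0.26. The 6 pairs among *Fkbp5*, *Tsc22d3*, *Zbtb16* and *Klf9* had positive r in both series, from 0.29 to 0.87. *Sgk1* was also positive with these 4 genes in both series, from 0.07 (*Fkbp5*, higher series) to 0.98 (*Klf9*, lower series). Without P357 and P392, the 6 pairs had r between 0.48 and 0.79, and *Sgk1* had between −0.39 and 0.23 with these 4 genes.

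**Figure D3:**
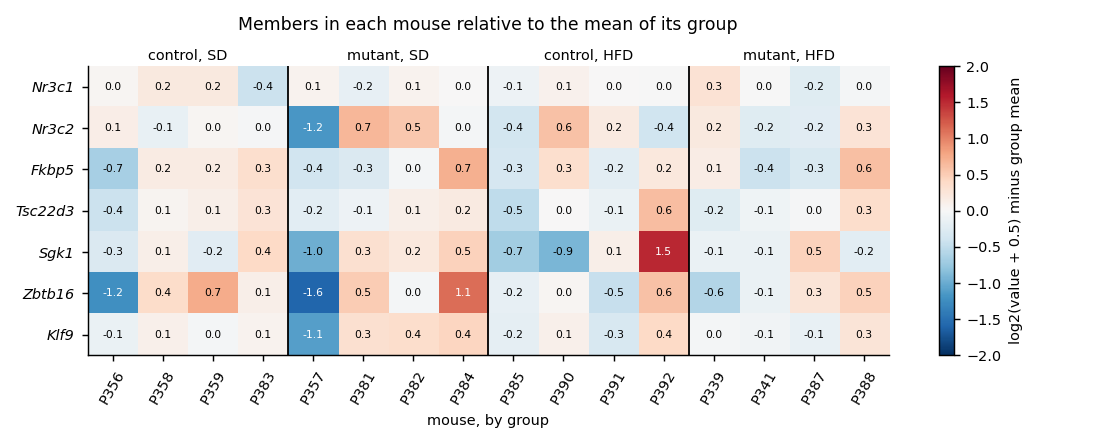
Log2(value + 0.5) of each gene (rows) in each mouse (columns, by group) minus the mean of its group, with red above and blue below the mean. P357 is blue in 6 of the 7 rows, and P392 is darkest red in *Sgk1*. Most mice keep the same sign in *Fkbp5*, *Tsc22d3* and *Zbtb16*, among them control P356 (blue) and control P383 and mutants P384 and P388 (red).

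**Figure D4:**
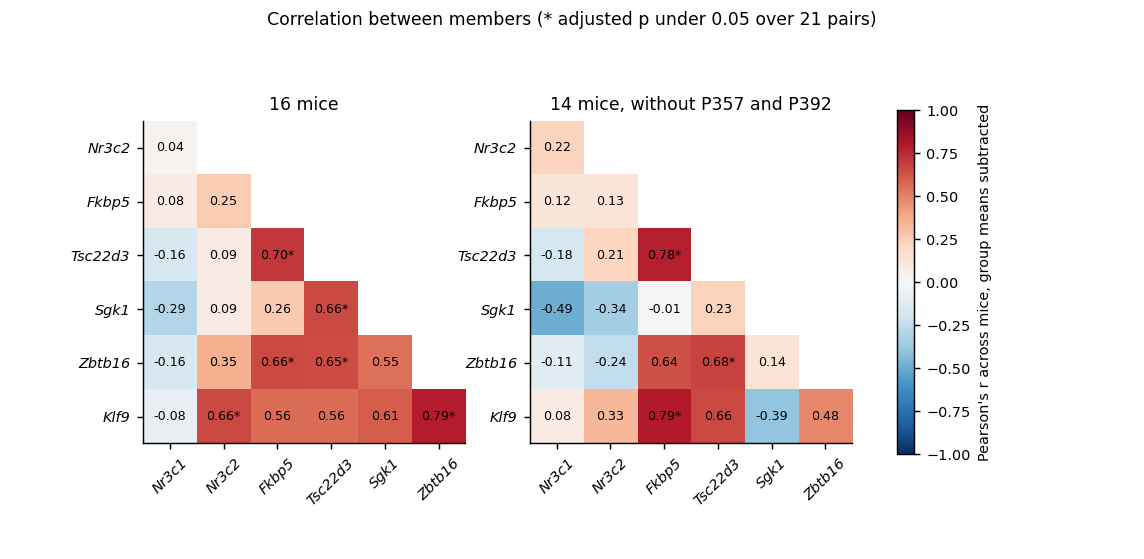
Pearson's r across mice between pairs of the 7 genes with group means subtracted, in all 16 mice (left) and without P357 and P392 (right), where an asterisk marks an adjusted permutation p under 0.05 over 21 pairs. *Fkbp5* with *Tsc22d3* keeps r at 0.70 and 0.78, while *Sgk1* with *Klf9* goes from 0.61 to −0.39.

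The hour at which the mice were killed is not given in the sources used here, and glucocorticoids follow a daily rhythm. *Dbp*, a clock output gene, ran from 11.2 to 46.1 in controls on SD and from 23.5 to 33.3 in mutants on SD, and from 41.1 to 140 in controls on HFD and from 42.5 to 56.9 in mutants on HFD. Of 10 clock output genes, 9 had a positive difference of HFD against SD averaged over genotypes, with a median of 0.62 beside 0.01 over all genes. None passed the threshold, and 8 were under it by limma's unadjusted p, against 5.1% of all genes. By the same unadjusted p, 8 were under it within controls and 3 within mutants, against 4.12% and 5% of all genes. The part of the hour itself in any member was not tested. Each member was set against *Dbp*, the mean log2 level of 4 corticotroph markers and that of 5 endothelial markers, which made 21 relations. The corticotroph markers include *Pomc*, which is a melanotroph marker as well. None had an adjusted permutation p under 0.05 in all 16 mice. For *Dbp*, r was 0.37 with *Fkbp5*, 0.37 with *Tsc22d3* and −0.01 with *Sgk1*. Without P357 and P392 these were 0.42, 0.69 (adjusted permutation p = 0.0574) and 0.25. The corticotroph level had its highest r with *Nr3c2* (0.69, rho = 0.61, adjusted permutation p = 0.0766), which was 0.08 without P357 and P392. Its r with *Tsc22d3* was 0.01 in all 16 mice and 0.67 without P357 and P392 (adjusted permutation p = 0.0574). The endothelial level had its highest r with *Sgk1* (0.61, rho = 0.19, adjusted permutation p = 0.207), which was −0.27 without them. Without P357 and P392, 1 of the 21 passed, *Nr3c1* with the endothelial level (r = 0.84, adjusted permutation p = 0.00546). The limit of the permutation given for the pairs of members applies here too.

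Of 101 other genes of the pathway in 7 lists, 96 were tested. For mutants against controls on SD, 1 of the 96 passed (1.04%, beside 1.84% over the whole table), and averaged over diets 8 passed (8.33%, beside 6.54%), of which 6 were higher and 2 lower in mutants. On HFD, for either diet comparison and for the interaction 0 passed.

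Among 15 receptor chaperones, only *Bag1*, an Hsp70 nucleotide exchange factor that can restrain the receptor, passed. Controls on SD had 88.8, 61.0, 79.0 and 68.0, and mutants on SD 104, 123, 118 and 112. On SD all mutants were above all controls, and groups did not overlap in 10.6% of all genes. The log2 fold change there was 0.63 (SE 0.12, adjusted p = 0.0256 in limma), a call that held in 10 of 16 fits that omit 1 mouse (adjusted p up to 0.0797). On HFD the groups overlapped, with 72.7 to 106 in controls and 105 to 114 in mutants. The log2 fold change was 0.39 on HFD (adjusted p = 0.280) and 0.51 averaged over diets (adjusted p = 0.00491). The Hsp70 family member *Hspa4* had 0.37 on SD (adjusted p = 0.276). The median of the 15 was 0.04 averaged over diets.

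Among 5 tested genes of local steroid handling, 2 passed averaged over diets, in opposite directions. *Hsd11b1*, the enzyme that regenerates active glucocorticoid from its inert 11-keto form, had 15.7, 16.7, 24.3 and 18.9 in controls on SD and 37.6, 24.2, 25.5 and 26.0 in mutants on SD. On HFD controls had 11.6, 15.6, 17.0 and 24.3 and mutants 25.1, 31.6, 24.0 and 26.1. On each diet 1 mutant lay just below the highest control, and the log2 fold change averaged over diets was 0.62 (SE 0.14, adjusted p = 0.0184). *Abcb1b*, one of the paired mouse genes for the P-glycoprotein pump that exports steroids, had 4.03, 15.3, 14.7 and 13.7 in controls on SD and 5.37, 1.39, 3.89 and 1.93 in mutants on SD. On HFD it was 4.81, 10.9, 9.87 and 1.75 in controls and 1.69, 3.91, 3.45 and 1.46 in mutants. Its log2 fold change averaged over diets was −1.41 (SE 0.38, adjusted p = 0.0374), the largest among the pathway genes. Its partner *Abcb1a*, at 0.62 to 2.48 over all mice, had −0.41 (adjusted p = 0.262). *Hsd11b2*, the inactivating enzyme, had a mean of 0.251 and was not tested.

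**Figure D5:**
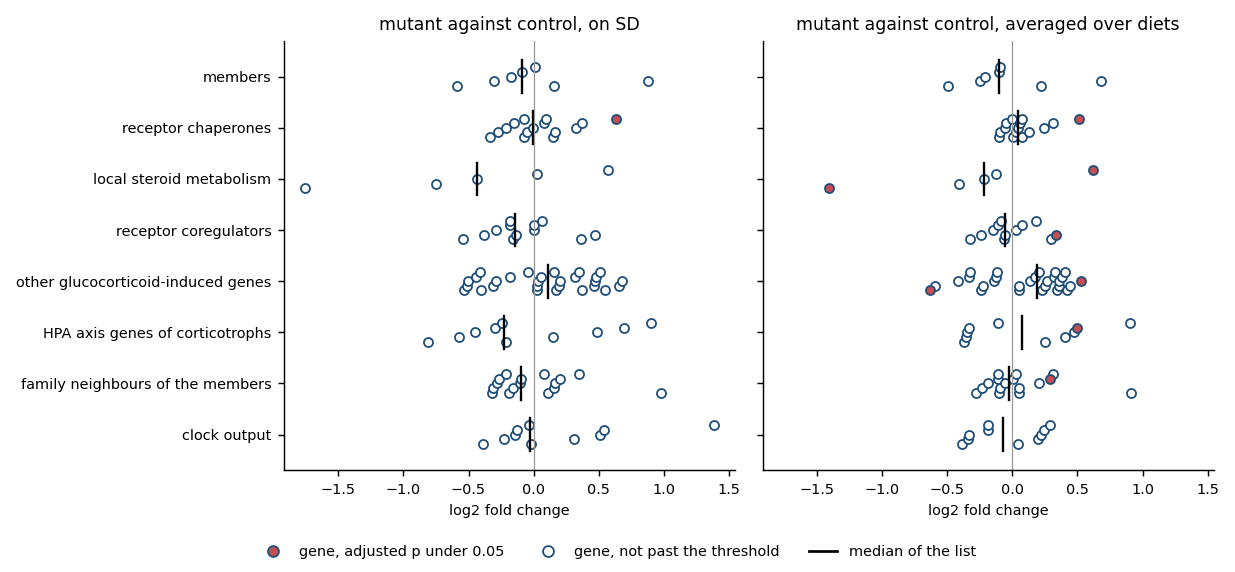
Log2 fold change of mutants against controls (horizontal axis) on SD (left) and averaged over diets (right) for the 7 members and the tested genes of 7 pathway lists, with 1 point per gene, red where the adjusted p is under 0.05, and a line at the median of each list. The right panel has 8 red points, from *Abcb1b* at −1.41 to *Hsd11b1* at 0.62, and none among the members.

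Among the coregulators, the coactivator *Ncoa1* had −0.32 averaged over diets (adjusted p = 0.137). Among 28 other glucocorticoid-induced genes, 1 was higher and 1 lower. *Cebpb*, a transcription factor of the C/EBP family, had 19.8 to 23.9 in controls on SD and 32.1 to 37.0 in mutants on SD. On HFD it overlapped, with 16.02 to 37.4 in controls, where P392 was the highest of all mice, and 26.8 to 31.1 in mutants, and its log2 fold change was 0.53 averaged over diets (adjusted p = 0.0315). *Txnip*, which binds thioredoxin and follows glucose supply, had 162 to 253 in controls on HFD and 121 to 145 in mutants on HFD, without overlap. Groups did not overlap in 5.31% of all genes on HFD and 10.6% on SD. Neither *Cebpb* nor *Txnip* passed on either diet alone. On SD *Txnip* overlapped, with 116 to 271 in controls and 114 to 155 in mutants. Its log2 fold change was −0.63 averaged over diets (adjusted p = 0.0248 in limma). The metallothionein *Mt1* had 0.42 (adjusted p = 0.106). The median of the 28 was 0.19, with 18 positive, beside 0.00 over all genes.

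Of 10 tested stress axis genes, *Lifr*, a receptor subunit through which LIF acts on corticotrophs, was higher averaged over diets (0.50, adjusted p = 0.0186). Mutants were narrowly above controls without overlap on SD (3.36 to 5.32 against 2.78 to 3.35) and also on HFD (4.16 to 4.89 against 2.57 to 3.94). Groups did not overlap in 10.6% and 5.31% of all genes, and *Lifr* passed the threshold on neither diet alone. *Pomc* was 14359 ± 2829 in controls on SD, 10671 ± 6122 in mutants on SD, 18043 ± 16755 in controls on HFD and 19401 ± 3673 in mutants on HFD (SD, n = 4 each), with a log2 fold change of −0.11 averaged over diets (95% confidence interval −1.13 to 0.92). As *Pomc* is also a melanotroph marker, its level is not that of corticotrophs alone. *Crhbp*, which sequesters CRH, had 0.90 averaged over diets (adjusted p = 0.182 in limma). Among 16 tested relatives of the members, *Fkbp1a*, the immunophilin FKBP12, was higher (0.29, adjusted p = 0.0333), and the progesterone receptor gene *Pgr*, an oestrogen-induced relative of *Nr3c1*, had 0.92 (adjusted p = 0.0523). Of 10 clock output genes 0 passed, with *Ciart* at 1.39 on SD (adjusted p = 0.0566) and *Per2* at 0.54 (adjusted p = 0.157). In fits that omit a single mouse, *Bag1*, *Hsd11b1* and *Lifr* stayed past the threshold averaged over diets in 16 of 16, but *Txnip* in 8, *Cebpb* and *Fkbp1a* in 5 and *Abcb1b* in 4, with adjusted p up to 0.0885.

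Other genes followed single members closely across mice. With group means subtracted, the highest r with *Tsc22d3* belonged to *Glul*, glutamine synthetase, which was also on the list of glucocorticoid-induced genes (0.92 over 16 mice, 0.86 without P357 and P392). *Plekhh1* (0.91) and *Vim*, the intermediate filament vimentin (0.88), came next. *Castor2* (0.95), *Tgfb2* (0.93) and *Adarb1* (0.91) were closest to *Sgk1* and had 0.80, 0.64 and 0.72 without these 2 mice. For *Fkbp5* the closest were *Doc2b* (0.87), *Dpy19l4* (0.84) and *Il1rap* (0.83), each at 0.89 without them. *Zbtb16* was followed by *Fam53c* (0.91), *Pip4p1* (0.90) and *Nt5e* (0.90), *Klf9* by *Bod1l* (0.97), *Fam210b* (0.97) and *Gpam* (0.97), which had 0.79, 0.71 and 0.69 without them. *Mpp5* (0.91) was the closest to *Nr3c2*, and the ribosomal protein gene *Rpl29* (0.90) to *Nr3c1*. These are the highest of 14340 values for each member, chosen for their size, and are given without a test.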

How the data were processed

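Pituitary RNA of 16 mice was made into libraries with the NEBNext Ultra II kit and sequenced on an Illumina NovaSeq, and the authors aligned reads to the mouse transcriptome (mm10) with Kallisto in gene mode and tested genes with Sleuth. The annotation release, tool versions and use of strand are not given in the sources used here. What the authors deposited is a normalized signal for every gene, not counts, so fold changes were computed on log2(value + 0.5), which understates changes of low genes. The scale of that signal is not stated, and its dependence on length was read from the values.

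A gene was tested where its mean over all mice reached 1 (14340 genes). The fit used limma 3.58.1 under R 4.3.3 with a coefficient for each group, eBayes with trend, 12 residual degrees of freedom and Benjamini-Hochberg adjustment over all genes tested at 0.05. Single comparisons of 4 against 4 mice used exact permutation tests, whose smallest two-sided p is 0.0286. Correlations used 100000 permutations, and those on centred values did not allow for the subtracted group means, so their p-values are too small. Analyses of relations and figures used Python 3.11.15, numpy 2.4.6, pandas 2.3.3, scipy 1.17.1 and matplotlib 3.10.9. The fitting code was tested on simulated data. Symbols and positions are those of GENCODE on GRCm38, and with BLAST 2.17.0 none of the 7 genes shared at least 300 bases at 90% identity with another gene. *Nr3c2* and *Fkbp5* overlap annotated genes on the opposite strand, none of which is in the table.

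The members and lists were chosen with earlier results of these data known. Genes named are the members, *Esr1*, *Pomc*, list genes with an adjusted p under 0.05 (at most 6 a list), the 2 list genes with the largest change on SD, and the 3 genes closest to each member. One list gene that met this rule is not reported here. *Dbp* and the levels of endothelial and corticotroph markers set against the members were chosen after their values were seen, as were the marker genes named beside *Sgk1*. Alternatives changed the filter (none, or a mean of 5), the pseudocount (0.1 or 1), the scaling (library medians, or quantiles), the trend in eBayes, the mice in the fit and the covariates (series of animal numbers), or omitted P357 with P392 or single mice. Correlations within each number series, and the fit of the members to the higher series alone, were added after seeing the data.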

Additional observations from a re-analysis of the deposited data

Results flagged for a closer look

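In 6 of 100 groups of 4 mice searched over 25 genes, 1 mouse lay far outside the rest, with a gap above Dixon's critical value, where chance alone flags about 1 in 20 groups, or 5 of 100. Among the members it was 2 of 28 groups. *Sgk1* was 28.6 in P387, a mutant on HFD, with the other mutants on HFD between 17.8 and 18.8. *Klf9* was 8.53 in P357, a mutant on SD, with the others between 23.7 and 25.8. The same mouse had the deviating values of *Esr1*, 10.02 against 20.5 to 22.2, and of *Hsd11b1*, 37.6 against 24.2 to 26.0. P356, a control on SD, had 4.03 for *Abcb1b* where the others had 13.7 to 15.3, and 17.4 for *Pgr* where the others had 4.56 to 5.93. P356 was also the lowest control on SD for *Fkbp5*, *Tsc22d3*, *Sgk1*, *Zbtb16* and *Klf9*.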

How the results depend on the processing

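No paired analysis was possible because the animals carry numbers that no 2 groups share. The counts of genes past the threshold moved most. With a minimum mean of 5 they were 151 on SD and 610 averaged over diets. Without P357 and P392 they were 961 on SD, 1064 on HFD, 2668 averaged over diets and 1 for HFD against SD in controls, with 1 member, *Sgk1*, on SD, on HFD and averaged. On HFD 1 gene passed with no filter and 1 without the trend, and for HFD against SD in mutants 2 passed with only the mice compared. For diet averaged over genotypes it was 0 with median scaling, 0 without the trend and 2 with the number series as a covariate. Omitting single mice gave 33 to 826 genes on SD, 0 to 653 on HFD, 441 to 1931 averaged over diets (0 to 1 members), 0 to 6 for diet in controls and for diet averaged, and 0 to 1 for diet in mutants and for the interaction. The lowest was without P382 on SD and without P390 averaged over diets, and the highest without P356 on SD and without P392 on HFD and averaged. The correlated pairs numbered 3 without P357 and P392 and 3 with no group mean subtracted. Causes were not tested.

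Directions turned in results that did not pass the threshold. With the number series as a covariate, *Tsc22d3* was −0.15 on SD, and on HFD *Fkbp5* was 0.095, *Klf9* 0.23 and *Ncoa1* 0.034. In controls HFD against SD was then 0.084 for *Nr3c1* and −0.31 for *Zbtb16*, the interaction −0.19 for *Nr3c1*, 0.10 for *Tsc22d3*, 0.26 for *Sgk1* and 0.16 for *Zbtb16*, and diet averaged −0.23 for *Zbtb16* and −0.11 for *Klf9*. In the higher number series alone, *Tsc22d3* was −0.19, *Zbtb16* 0.32 and *Klf9* 0.12 on SD, *Fkbp5* 0.035 and *Klf9* 0.026 on HFD and *Klf9* 0.074 averaged. Without P357 and P392, *Zbtb16* was 0.44 and *Klf9* 0.19 on SD, and on HFD *Nr3c2* was −0.034, *Tsc22d3* 0.0015, *Klf9* 0.11 and *Pomc* −0.022. Diet in mutants was then −0.28 for *Nr3c2* and −0.28 for *Klf9*, the interaction −0.087 for *Klf9*, genotype averaged 0.042 for *Tsc22d3* and 0.15 for *Klf9*, and diet averaged −0.35 for *Zbtb16* and −0.24 for *Klf9*. Their r was −0.0088 for *Fkbp5* with *Sgk1* and −0.39 for *Sgk1* with *Klf9*, and with no group mean subtracted it was −0.084 for the former. With a pseudocount of 1, *Tsc22d3* was 0.00023 for diet in controls and *Zbtb16* −0.0016 for diet averaged. Median scaling gave 0.0015 for *Tsc22d3* in controls, and quantile normalization −0.015 for *Per2* on HFD and, for diet averaged, −0.0095 for *Zbtb16* and −0.0083 for *Klf9*.

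Omitting single mice, the log2 difference of the results that turned ranged across 0. On SD it was −0.13 to 0.10 for *Tsc22d3*, −0.50 to 0.44 for *Zbtb16* and −0.32 to 0.19 for *Klf9*. On HFD it was −0.034 to 0.29 for *Nr3c2*, −0.14 to 0.20 for *Per2*, −0.31 to 0.038 for *Fkbp5*, −0.13 to 0.11 for *Klf9*, −0.20 to 0.13 for *Abcb1a*, −0.37 to 0.0015 for *Tsc22d3* and −0.022 to 1.18 for *Pomc*. For diet in mutants it was −0.28 to 0.33 for *Nr3c2*, −0.28 to 0.24 for *Klf9*, −0.44 to 0.0023 for *Fkbp5* and −0.13 to 0.052 for *Nr3c1*. For diet in controls it was −0.21 to 0.17 for *Tsc22d3* and −0.19 to 0.048 for *Klf9*. For the interaction it was −0.73 to 0.10 for *Sgk1*, −0.22 to 0.29 for *Klf9* and −0.00073 to 0.44 for *Fkbp5*. For genotype averaged it was −0.42 to 0.27 for *Pomc*, −0.18 to 0.0070 for *Tsc22d3* and −0.17 to 0.083 for *Klf9*. For diet averaged it was −0.25 to 0.20 for *Zbtb16* and −0.17 to 0.089 for *Klf9*.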
